A study of Homo sapiens with 6 samples.

Results

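The genes described here are 30 established transcriptional targets of p53 that stand outside its feedback loop, its cell cycle inhibitors and its best known death genes. They were picked by name, with earlier results of these data known. For each gene 1 probe set stands, namely one that names that gene alone in the platform annotation. Of the 30, 27 had such a probe set among the 18404 genes measured, and each of the 27 had exactly 1. BTG2 and the metabolic genes FDXR and GLS2 were not analysed here. RNA of H226, a lung cancer line of squamous type, was hybridised to Affymetrix HuGene 1.0 ST arrays, 6 in all, in 3 groups of 2. All groups carried an inducible shRNA against p63, a p53 family transcription factor of basal and squamous epithelium. Control cells had the shRNA off and no drug. Nutlin-3 cells also had it off and received 10 µM Nutlin-3, an inhibitor of the MDM2-p53 interaction, for 12 h. In shp63 ON the shRNA was switched on by doxycycline, 1 µg/mL for 48 h, with no Nutlin-3 given. The drug, its duration and the silencing of p63 cannot be told apart in that group, since no cells without the p63 shRNA received doxycycline. The labels do not say whether replicate arrays came from separate cultures, so p-values measure only the spread between these arrays, which may be technical.

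p53 is a transcription factor that MDM2 normally holds at a low level by ubiquitination. When it is released, by DNA damage or by an MDM2 inhibitor, it binds DNA as a tetramer at paired copies of a short decamer and activates genes of growth arrest, death, mitochondrial quality control and metabolism. p63 shares the DNA-binding fold and can occupy many of the same sites, where its dominant epithelial isoform may activate or repress.

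The bases around the start site were searched for the p53 half-site, a decamer that is its own reverse complement, so 1 strand covers both. A pair was 2 decamers that kept the core CNNG, at most 13 bases apart, with at most 3 mismatches in 20 bases. RefSeq windows of 300 bases (250 before and 50 after a start, build GRCh38.p14) were found for 23 of the 27 genes. A pair was present in 10 of their 34 windows (29.4%), from 9 genes, against 12.6% of the 20100 windows of all measured genes. Some of these windows overlap, as both matching ASTN2 windows hold the same pair. An exact half-site was in 4 of the 34 windows (11.8%), against 6.28%. The 9 genes with a pair were ACTA2, ASTN2, CES2, DCP1B, LPIN1, PANK1, PLK2, RPS27L and ZMAT3. They include 5 that rose with Nutlin-3, 2 that fell (LPIN1 and ACTA2) and 2 that did not pass. Both falls were lost in some of the alternative fits given below. The ACTA2 matches also lie inside the gene model of FAS, the death receptor, which rose with Nutlin-3. Whether a match goes with a direction was not tested. The pairs of ZMAT3 (chr3:179071867-179071892, minus strand) and CES2 (chr16:66935402-66935421, plus strand) lie before a start inside the gene model. Each has 3 mismatches, the most allowed. Only the matches are shown, with the decamers in capitals.
ZMAT3: GGGCCTGCTCcgccaaGCACATGCGC
CES2: GGCCGTGCCCGGGCCTGCCT

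For RPS27L, DCP1B, PANK1, ACTA2 and PLK2 a match lies before the outermost start. The 250 bases before that start are shown for the 4 of them that changed with Nutlin-3, so that the place of the decamers (capitals) can be seen. RPS27L, DCP1B and PANK1 rose with Nutlin-3, and ACTA2 fell. The windows are chr15:63157478-63157727 for RPS27L, chr12:2004458-2004707 for DCP1B, chr10:89645243-89645492 for PANK1 and chr10:88991338-88991587 for ACTA2, all on the minus strand. RPS27L and PANK1 each hold an exact half-site there, as does ACTA2. The RPS27L pair has 3 mismatches, all outside its half-site, the DCP1B pair 2 and the PANK1 pair 1. The second decamer of PANK1 crosses the start, so only its first 5 bases are shown, in lower case at the end. ACTA2 has a further pair with 2 mismatches after its start (chr10:88991309-88991328). That pair and the printed ACTA2 window also lie inside the FAS gene model (chr10:88964050-89017059). Which of the 2 genes these matches serve was not tested.
RPS27L: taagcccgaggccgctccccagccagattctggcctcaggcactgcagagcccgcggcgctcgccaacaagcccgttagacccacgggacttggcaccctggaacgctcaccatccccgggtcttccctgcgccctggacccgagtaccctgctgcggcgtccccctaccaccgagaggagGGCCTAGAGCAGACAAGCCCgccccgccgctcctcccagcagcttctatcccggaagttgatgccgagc
DCP1B: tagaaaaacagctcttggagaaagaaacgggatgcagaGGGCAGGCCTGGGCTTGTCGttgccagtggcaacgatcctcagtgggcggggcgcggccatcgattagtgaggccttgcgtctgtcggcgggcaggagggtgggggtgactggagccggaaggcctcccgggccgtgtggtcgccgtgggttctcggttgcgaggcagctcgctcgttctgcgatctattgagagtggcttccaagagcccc
PANK1: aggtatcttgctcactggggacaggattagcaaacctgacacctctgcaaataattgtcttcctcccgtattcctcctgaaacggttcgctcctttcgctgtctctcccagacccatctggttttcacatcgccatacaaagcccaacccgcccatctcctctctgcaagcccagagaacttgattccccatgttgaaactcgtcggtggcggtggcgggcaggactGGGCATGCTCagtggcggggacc
ACTA2: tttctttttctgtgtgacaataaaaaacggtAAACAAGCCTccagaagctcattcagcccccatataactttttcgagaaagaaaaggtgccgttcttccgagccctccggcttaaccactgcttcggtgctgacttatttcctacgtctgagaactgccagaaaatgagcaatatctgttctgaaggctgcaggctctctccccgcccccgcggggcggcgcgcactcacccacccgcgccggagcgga

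Values throughout are log2 intensities of probe sets as deposited, so 1 unit is a doubling, and a difference of group means is a log2 fold change. The arrays agreed in scale, with medians over all probe sets of 6.57 to 6.70, and replicate arrays correlated across genes at r = 0.997 to 0.998. Of 10 squamous and basal markers 8 had a value, from PKP1 (6.69 to 7.26 on the 6 arrays) and KRT15 (6.74 to 7.71) up to TRIM29 (11.92 to 12.28) and the basal keratin KRT5 (11.87 to 12.39). Of these 8, 4 rose with Nutlin-3, and in shp63 ON 2 rose and 4 fell. Among all genes 9.64% rose and 8.89% fell with Nutlin-3, and 19.7% rose and 16.5% fell in shp63 ON. The desmosomal cadherin DSG3 changed by 2.03 with Nutlin-3 and by −0.73 in shp63 ON, and DSC3 and LAMB3 also rose in the first and fell in the second. Their part in the results below was not tested. Stromal fibroblast markers ran from LUM (3.85 to 4.17) and DCN (3.94 to 4.05) to COL1A1 (8.18 to 8.40), with 2 of 6 higher in shp63 ON. Leukocyte markers ran from PTPRC (4.24 to 4.48), which defines the lineage, to CD68 (9.27 to 10.05). Of 5 of them, LAPTM5 (0.89) and CD68 (0.29) rose with Nutlin-3, and CD68 (0.75) and CD14 (0.62) rose in shp63 ON. Of 6 mesothelial markers, mesothelin, MSLN, stood at 9.76 to 10.09, BNC1 at 9.45 to 10.55 and WT1 at 6.0 to 6.44. CALB2, LRRN4 and HP lay below 6.4. MSLN (0.27) and WT1 (0.26) rose in shp63 ON. BNC1 rose with Nutlin-3 (0.68) and fell in shp63 ON (−0.37), and CALB2, LRRN4 and HP did not pass. Of 5 endothelial markers, CDH5 fell (−0.47) and TEK rose (0.30) with Nutlin-3, and CDH5 (0.57) and VWF (0.31) rose in shp63 ON. The level of p63 itself was not analysed here.

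Nutlin-3 raised members of every role group. Of the 27, 22 rose, 2 fell and 3 did not pass (limma, Benjamini-Hochberg adjusted p under 0.05 over all 18404 genes). Among all genes 18.5% were called, 9.64% higher and 8.89% lower. The 27 were chosen with earlier results of these data known, so their counts are no independent test beside these shares. The median log2 fold change of the 27 was 1.06, against −0.0025 over all genes. At least a 1.5-fold rise was seen in 21 of them, and in 459 of all 18404 genes. The arrays of both groups did not overlap in 26 of the 27, with 24 higher and 2 lower, whereas 30.2% of all genes were higher and 30.3% lower without overlap. ASTN2 was the member whose groups overlapped.

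**Figure D1:**
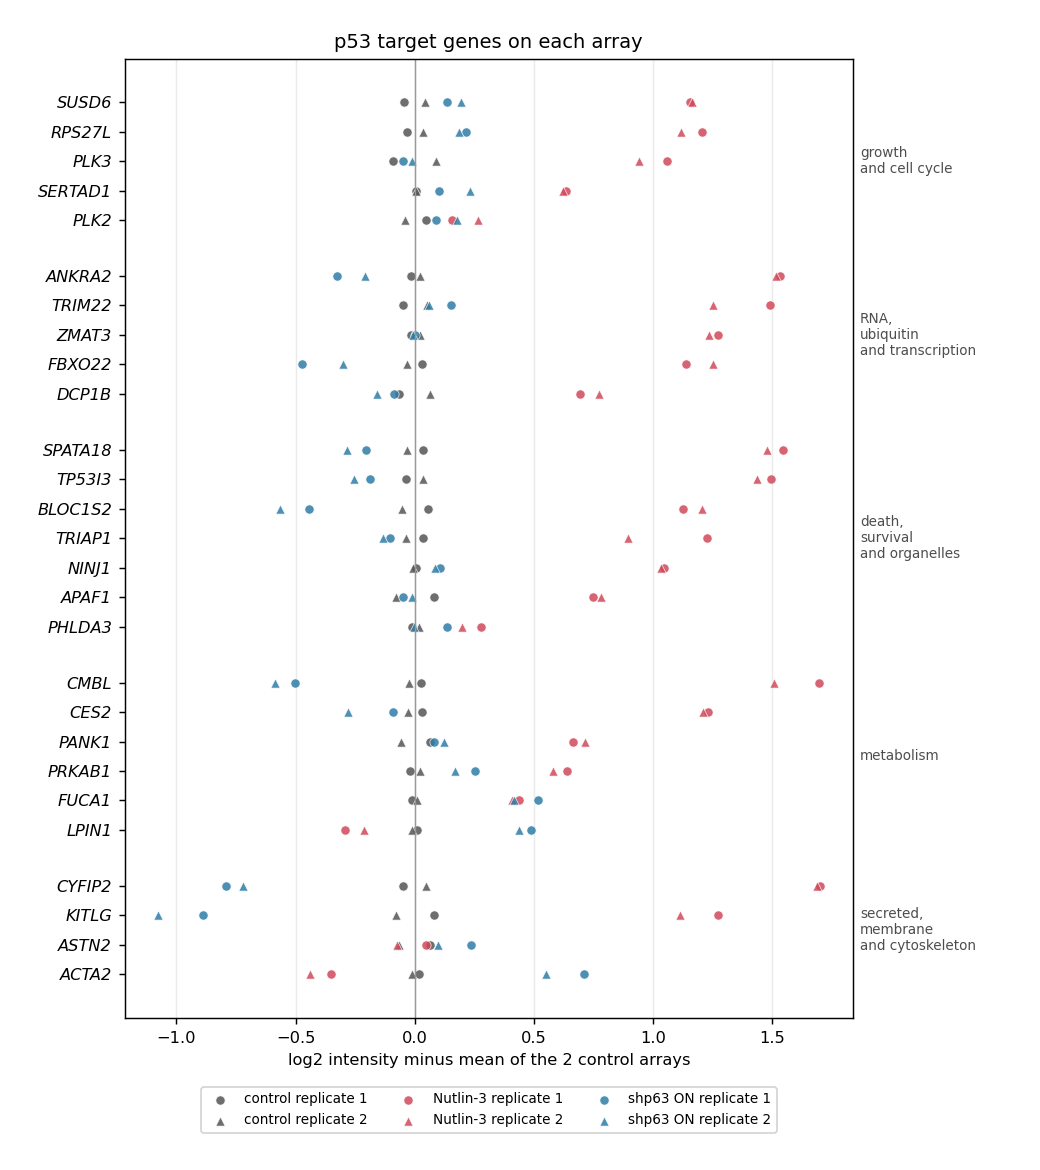
Each row is 1 p53 target gene, and each point is 1 array, plotted as its log2 intensity minus the mean of the 2 control arrays; circles are replicate 1 and triangles replicate 2. The Nutlin-3 arrays lie to the right of control for 24 of the 27 genes and to the left for LPIN1 and ACTA2, while the shp63 ON arrays lie on both sides of control.

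With the p63 shRNA on, calls among the same genes went in both directions, as they did among all genes. Of the 27, 5 rose, 8 fell and 14 did not pass (same test and adjustment). Among all genes 36.2% were called, 19.7% higher and 16.5% lower, so a call is common in this comparison. The shp63 ON counts by role and of markers below are to be read beside these shares. The median log2 fold change of the 27 was 0.0014, against 0.04 over all genes. Few changes reached 1.5-fold: 1 gene, ACTA2, rose by at least that much, and 2, CYFIP2 and KITLG, fell by as much. Of all 18404 genes, 319 rose and 864 fell by at least 1.5-fold, so such changes were uncommon in general. The shp63 ON and control arrays did not overlap for 12 genes that were higher and 11 that were lower, beside 41.3% and 30.4% of all genes. Both comparisons use the same control arrays. The count of falls was 4 without control replicate 1, 5 without control replicate 2 and 5 without shp63 ON replicate 1. The count of rises was 3 without any 1 of the control or shp63 ON arrays.

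**Figure D2:**
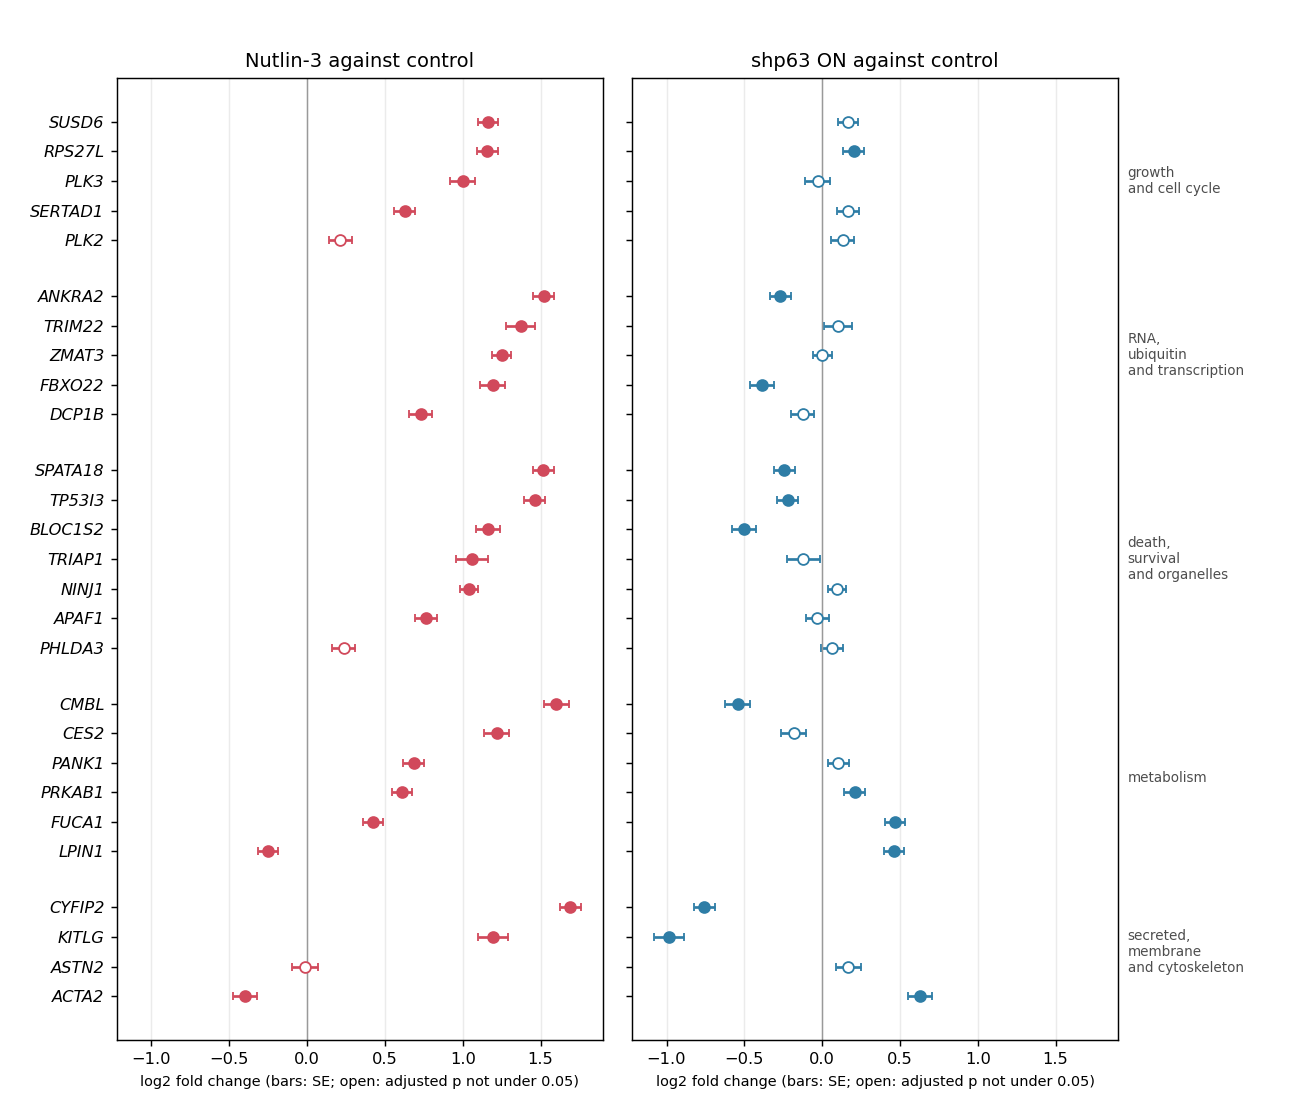
Log2 fold changes of the 27 genes (points) with limma's SE (bars) for Nutlin-3 against control at left and shp63 ON against control at right, on 1 scale, ordered by role. Filled points passed at an adjusted p under 0.05, 24 at left and 13 at right. At left the called rises lie between 0.42 and 1.69, and at right all points lie between −0.98 and 0.63.

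The direct comparison of shp63 ON with Nutlin-3 tests whether both effects differ, without the control arrays entering the difference. In it 21 of the 27 genes were lower in shp63 ON, 2 were higher (LPIN1 and ACTA2) and 4 did not pass. Among all genes 51.5% were called, 24.0% lower and 27.5% higher. The median difference was −0.996 on the log2 scale. The 4 that did not pass were PLK2, PHLDA3, ASTN2 and FUCA1.

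Cell growth and cell cycle genes rose with Nutlin-3 in 4 of 5 cases (median log2 fold change 1.00), and 1 of 5 passed in shp63 ON, a rise. SUSD6, a membrane protein that restrains growth, changed by 1.16 (SE 0.06) with Nutlin-3, and RPS27L, a paralog of the ribosomal protein RPS27, by 1.16 (SE 0.07). Since the paralogs are alike in sequence, the probes of RPS27L may also bind RPS27 transcripts. PLK3, a stress-responsive polo-like kinase, changed by 1.00 (SE 0.08) and SERTAD1, a transcriptional coregulator that binds CDK4, by 0.63 (SE 0.07). PLK2, the close relative of PLK3, read 10.77 and 10.68 in control and 10.88 and 10.99 with Nutlin-3. Its log2 fold change of 0.21 (SE 0.07) did not pass (limma adjusted p = 0.0904), although its groups did not overlap. So of both polo-like kinases, PLK3 passed and PLK2 did not, and whether their responses differ was not tested. In shp63 ON the call of RPS27L (0.20, SE 0.07, limma adjusted p = 0.0485) was lost in 10 of 17 alternatives, with adjusted p of 0.0308 to 0.206. SUSD6 (0.16) and SERTAD1 (0.17) did not pass there, nor did PLK2 (0.13) and PLK3 (−0.03).

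All 5 genes of RNA handling, ubiquitination and transcription rose with Nutlin-3 (median 1.25), and in shp63 ON 2 of them fell. ANKRA2 encodes an ankyrin repeat protein that binds class IIa histone deacetylases. It read 6.35 and 6.39 in control, 7.90 and 7.88 with Nutlin-3, and 6.04 and 6.16 in shp63 ON. The 3 groups did not overlap, and Nutlin-3 stood highest. The log2 fold change was 1.52 (2.87-fold, SE 0.07) with Nutlin-3 and −0.27 (SE 0.07) in shp63 ON. FBXO22, a substrate receptor of an SCF ubiquitin ligase, read 9.86 and 9.80 in control, 10.97 and 11.08 with Nutlin-3, and 9.36 and 9.53 in shp63 ON. It thus had the same order of groups, with changes of 1.19 (SE 0.08) and −0.39 (SE 0.08). The fall of ANKRA2 in shp63 ON (limma adjusted p = 0.0191) was lost without control replicate 1, without control replicate 2 and without shp63 ON replicate 1. The fall of FBXO22 (limma adjusted p = 0.00859) was lost without control replicate 1 and without shp63 ON replicate 1. Both were also lost in the unmoderated analysis of variance with adjustment. Over all alternatives their log2 fold changes ran from −0.40 to −0.21 and from −0.47 to −0.30.

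TRIM22, an antiviral ubiquitin ligase also known as an interferon-induced gene, read 8.54 and 8.64 in control, 10.08 and 9.84 with Nutlin-3, and 8.74 and 8.65 in shp63 ON. ZMAT3, a zinc finger protein that binds RNA and alters splicing, read 9.16 and 9.2 in control, 10.45 and 10.41 with Nutlin-3, and 9.18 and 9.17 in shp63 ON. Both stood apart in the Nutlin-3 arrays and near control in shp63 ON. TRIM22 changed by 1.37 (SE 0.09) with Nutlin-3 and by 0.10 (SE 0.09) in shp63 ON. For ZMAT3 these were 1.25 (SE 0.06) and 0.0014 (SE 0.06), and neither gene passed in shp63 ON (limma adjusted p = 0.408 and 0.988). DCP1B, a cofactor of mRNA decapping, rose by 0.73 (SE 0.07) with Nutlin-3 and did not pass in shp63 ON (−0.12).

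Genes of cell death, survival and organelle upkeep rose with Nutlin-3 in 6 of 7 cases (median 1.06). In shp63 ON 3 fell and 4 did not pass. SPATA18, known as Mieap, a protein of mitochondrial quality control, read 8.94 and 8.87 in control, 10.45 and 10.38 with Nutlin-3, and 8.70 and 8.62 in shp63 ON. TP53I3, the quinone oxidoreductase PIG3, read 9.90 and 9.97 in control, 11.43 and 11.37 with Nutlin-3, and 9.75 and 9.68 in shp63 ON. In both genes the Nutlin-3 arrays were highest and the shp63 ON arrays lowest, with no overlap. SPATA18 changed by 1.52 (SE 0.07) and −0.24 (SE 0.07), and TP53I3 by 1.46 (SE 0.07) and −0.22 (SE 0.07), for Nutlin-3 and shp63 ON in turn. The falls in shp63 ON passed narrowly (limma adjusted p = 0.0265 and 0.0366). They were lost in 7 and 8 of 17 alternatives, among them the fits without control replicate 1, control replicate 2, shp63 ON replicate 1 or shp63 ON replicate 2. Their adjusted p ran from 0.00751 to 0.133 and from 0.00673 to 0.184.

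BLOC1S2, a subunit of complexes that position lysosomes and form lysosome-related organelles, had the clearest fall of this group. It read 8.74 and 8.63 in control, 9.81 and 9.89 with Nutlin-3, and 8.24 and 8.12 in shp63 ON. The change was 1.16 (SE 0.07) with Nutlin-3 and −0.50 (1.42-fold lower, SE 0.07, limma adjusted p = 0.0023) in shp63 ON, and both calls held in all 17 alternatives. Regulators of the mitochondrial death pathway and of membrane integrity rose with Nutlin-3 and did not pass in shp63 ON. TRIAP1, an inhibitor of apoptosome assembly, rose by 1.06 (SE 0.10), with 10.27 and 9.94 on the Nutlin-3 arrays. NINJ1, which ruptures the plasma membrane of dying cells, rose by 1.04 (SE 0.06), and APAF1, the scaffold of the apoptosome, by 0.76 (SE 0.07). PHLDA3, which competes with AKT for membrane lipids, read 9.78 and 9.81 in control and 10.07 and 9.99 with Nutlin-3. Its change of 0.23 (SE 0.07) did not pass (limma adjusted p = 0.0612).

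The metabolic genes moved in both directions. With Nutlin-3, 5 of 6 rose and 1 fell (median 0.65), and in shp63 ON 3 rose, 1 fell and 2 did not pass. CMBL, a cytosolic hydrolase, read 9.48 and 9.43 in control, 11.15 and 10.96 with Nutlin-3, and 8.95 and 8.87 in shp63 ON. CES2, a carboxylesterase that hydrolyses drugs and lipids, read 9.87 and 9.81 in control, 11.07 and 11.05 with Nutlin-3, and 9.75 and 9.56 in shp63 ON. Both hydrolases were highest with Nutlin-3 and lowest in shp63 ON, with no overlap. CMBL changed by 1.60 (3.03-fold, SE 0.08) and −0.54 (1.46-fold lower, SE 0.08), and both changes passed in all 17 alternatives. CES2 rose by 1.22 (SE 0.08) with Nutlin-3 and did not pass in shp63 ON (−0.18, SE 0.08, limma adjusted p = 0.109).

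FUCA1, the lysosomal fucosidase, rose in both comparisons. It read 8.36 and 8.38 in control, 8.81 and 8.78 with Nutlin-3, and 8.89 and 8.79 in shp63 ON, so that the treated groups overlapped each other above control. The change was 0.42 (1.34-fold, SE 0.06) with Nutlin-3 and 0.47 (1.38-fold, SE 0.06) in shp63 ON. Their difference, 0.05 (SE 0.06), did not pass (limma adjusted p = 0.585). LPIN1, a phosphatidate phosphatase of triglyceride synthesis, read 6.79 and 6.77 in control, 6.49 and 6.57 with Nutlin-3, and 7.27 and 7.22 in shp63 ON. Its order of groups was thus the reverse of CMBL. The change in shp63 ON was 0.46 (SE 0.06, limma adjusted p = 0.00175). The fall with Nutlin-3, −0.25 (SE 0.06, limma adjusted p = 0.0333), was lost in 10 of 17 alternatives (adjusted p of 0.0186 to 0.158), including the fits without any 1 control or Nutlin-3 array. PANK1, the kinase that starts coenzyme A synthesis, rose by 0.68 (SE 0.07) with Nutlin-3. PRKAB1, a regulatory subunit of the energy sensor AMPK, rose by 0.61 (SE 0.07). In shp63 ON, PANK1 did not pass (0.10), and the rise of PRKAB1 (0.21, SE 0.07, limma adjusted p = 0.0421) was lost without any 1 control or shp63 ON array, with adjusted p of 0.00854 to 0.183 over the alternatives.

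**Figure D3:**
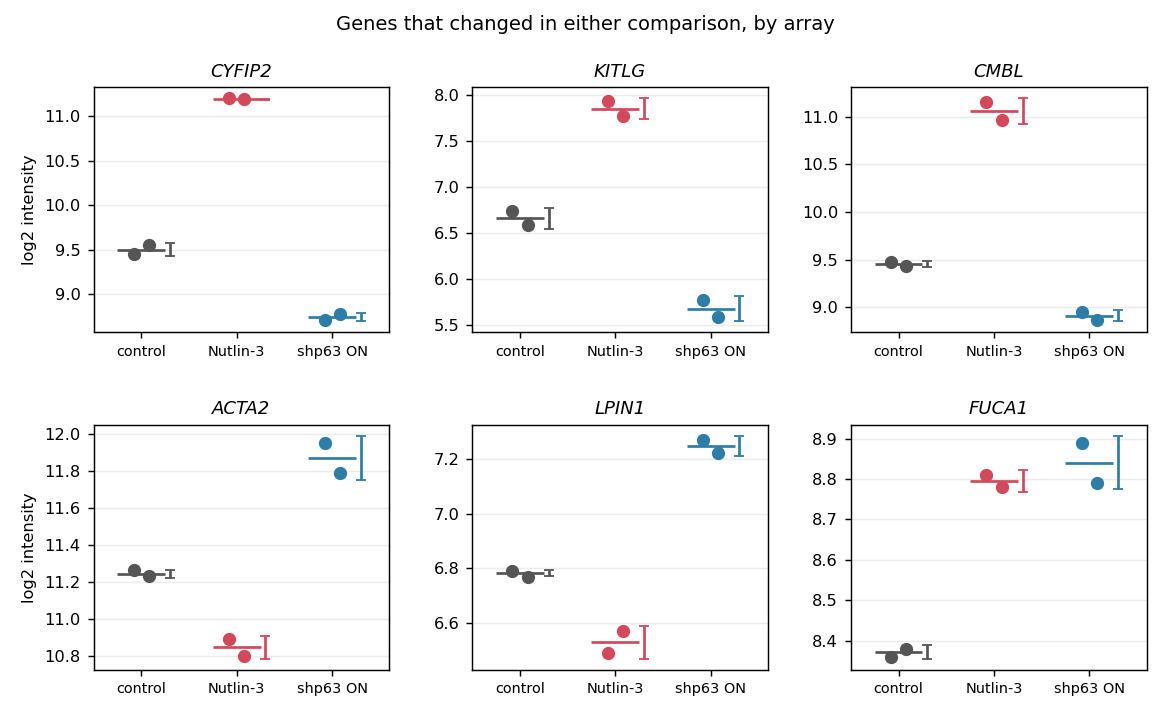
Log2 intensity on each array (points) of 6 genes in the 3 groups, with the group mean (horizontal line) and SD (bar, n = 2); each panel has its own axis, which does not start at 0. CYFIP2, KITLG and CMBL are highest with Nutlin-3 and lowest in shp63 ON, ACTA2 and LPIN1 have the reverse order, and FUCA1 is above control in both.

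The largest change of the 27 in each comparison with control lay among the 4 genes of secretion, membrane and cytoskeleton. CYFIP2 encodes a subunit of the WAVE complex, which drives actin branching. It read 9.45 and 9.55 in control, 11.20 and 11.19 with Nutlin-3, and 8.71 and 8.78 in shp63 ON. This was the largest rise of the 27 genes with Nutlin-3 (1.69, 3.23-fold, SE 0.07) and the largest fall but one in shp63 ON (−0.76, 1.69-fold lower, SE 0.07). Between shp63 ON and Nutlin-3 it differed by −2.45 (SE 0.07, limma adjusted p = 1.59e-06). KITLG, the ligand of the receptor kinase KIT, read 6.74 and 6.58 in control, 7.93 and 7.77 with Nutlin-3, and 5.77 and 5.58 in shp63 ON. It changed by 1.19 (2.29-fold, SE 0.10) with Nutlin-3 and by −0.98 (1.98-fold lower, SE 0.10) in shp63 ON. Calls of both genes held in all 17 alternatives of each comparison. ASTN2, an astrotactin best known from migrating neurons, stood between 6.0 and 6.31 on all 6 arrays and passed in no comparison.

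ACTA2, smooth muscle alpha actin, went against most of the list. It read 11.26 and 11.23 in control, 10.89 and 10.80 with Nutlin-3, and 11.95 and 11.79 in shp63 ON, with no overlap between groups. The change was −0.40 (1.32-fold lower, SE 0.08, limma adjusted p = 0.0116) with Nutlin-3 and 0.63 (1.55-fold higher, SE 0.08, limma adjusted p = 0.000997) in shp63 ON. The fall was lost without control replicate 1, control replicate 2 or Nutlin-3 replicate 2 (adjusted p of 0.000497 to 0.0998 over the alternatives), and the rise held in all. Of 5 other smooth muscle markers, 2 fell with Nutlin-3, CNN1 (−0.69, SE 0.06) and DES (−0.28, SE 0.06), and 1 rose in shp63 ON, DES (0.35, SE 0.06). The summed linear intensity of the 5 was 8498 to 8878 in control, 7771 to 8000 with Nutlin-3 and 8901 to 9397 in shp63 ON. Most of that sum comes from TAGLN, which stood at 12.79 to 13.01 and passed in no comparison. CNN1 stood at 8.84 to 9.68 and DES at 6.65 to 7.31. MYH11 and MYOCD, which define the smooth muscle lineage, were low, at 5.82 to 6.35 and 5.95 to 6.09. The part of these markers in the result was not tested. In RefSeq (GRCh38.p14) the ACTA2 gene model overlaps that of FAS, the death receptor, which was looked at after these values were seen. FAS read 9.62 and 9.66 in control, 10.93 and 10.90 with Nutlin-3, and 9.28 and 9.29 in shp63 ON, so this neighbour had the reverse order of ACTA2.

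Other p53 targets fixed as a list (mostly feedback, cell cycle, death and repair genes, 31 with a value) are set beside the 27. This list was also chosen with earlier results of these data known, so its counts are not an independent background. With Nutlin-3, 26 of 31 rose, none fell and 5 did not pass (median 1.12), while 9.64% of all genes rose and 8.89% fell. The count of falls in limma was 0 at an unadjusted p under 0.05 as well, and 0 in each of the 17 alternatives. MDM2, the main p53 inhibitor, read 11.44 and 11.37 in control and 12.47 and 12.93 with Nutlin-3. CDKN1A, the kinase inhibitor p21, read 10.21 and 10.30 against 11.85 and 11.84. ABCA12 (2.74), GDF15 (2.32) and EDA2R (2.00) rose most, beyond any of the 27. The rise of ABCA12 was the largest of all 18404 genes. In shp63 ON, 3 of the 31 rose, 13 fell and 15 did not pass (median −0.16). Of all genes 19.7% rose there and 16.5% fell. DRAM1, a lysosomal protein of autophagy, fell most (−0.997, SE 0.07), followed by ABCA12 (−0.84, SE 0.06) and the cell cycle adaptor SFN (−0.60, SE 0.07). MDM2 read 10.92 and 11.04 there and CDKN1A 10.38 and 10.39, with changes of −0.43 (SE 0.14) and 0.13 (SE 0.06). Of these, MDM2 passed narrowly (limma adjusted p = 0.0455) and CDKN1A did not pass (limma adjusted p = 0.15). The falls numbered 7 without control replicate 1, 6 without control replicate 2 and 8 without shp63 ON replicate 2.

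**Figure D4:**
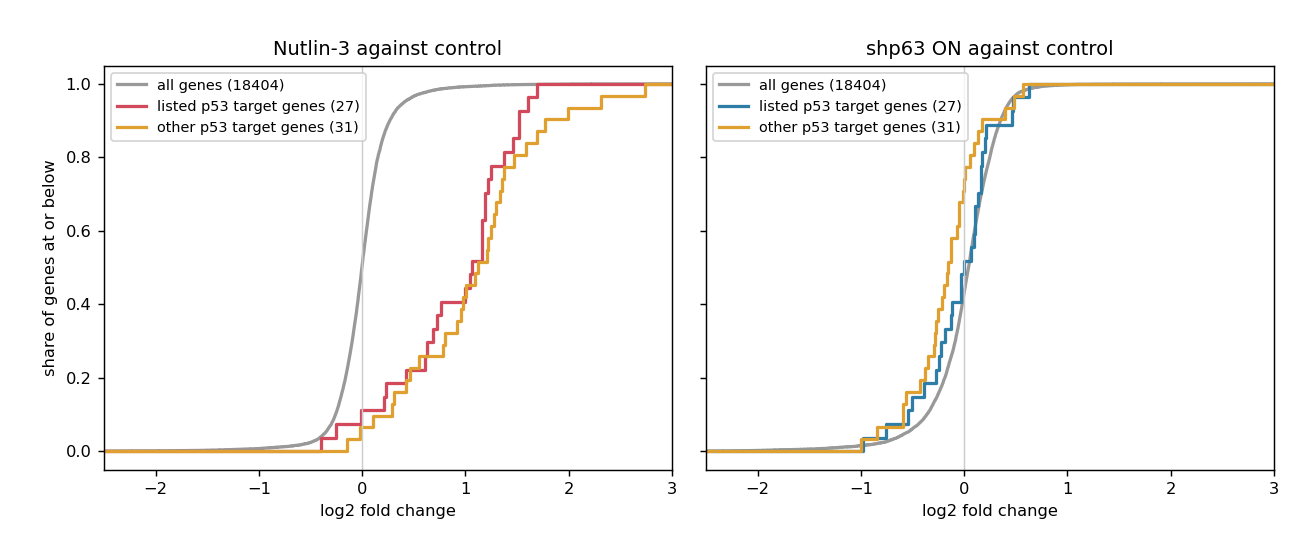
Cumulative share of genes (vertical axis) at or below each log2 fold change (horizontal axis, shown from −2.5 to 3) for all 18404 genes, the 27 p53 target genes and the 31 other p53 targets. With Nutlin-3 both target lists lie right of all genes, with medians of 1.06 and 1.12, and in shp63 ON their medians are 0.0014 and −0.16, against 0.04 over all genes.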

How the data were processed

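The deposited values are log2 intensities, 1 per probe set and array, with near equal array medians. The log2 unit is read from the values (2.94 to 14.9). Partek is named per the submitters' processing notes, with no version, and background correction, normalization and probe summary are not given in the sources. Of 32321 probe sets, 19158 name 1 gene, 1388 several and 11775 none. Genes took the probe set with the highest mean over the 6 arrays. No dim gene was removed.

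All 6 arrays entered 1 limma fit (lmFit and eBayes of limma 3.58.1, R 4.3.3) that gave each group its mean, without trend and with 3 residual degrees of freedom, and with Benjamini-Hochberg adjustment over 18404 genes. The fit was also run on simulated data with independent noise and few changed genes, for Nutlin-3 against control only. Arrays give no read depth, and 2 per group limit the precision. The members and lists were chosen with earlier results of these data known. Array values are printed for the 10 largest called changes with Nutlin-3, the 8 largest in shp63 ON and members called both ways, with others chosen after their values were seen. Printed promoters come from up to 4 genes with a motif match, by size of change with Nutlin-3, and only where the start is the outer end of the gene model. Alternatives numbered 17 for each comparison.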

Additional observations from a re-analysis of the deposited data

How the results depend on the processing

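Over 17 alternatives per comparison, 21 of 24 Nutlin-3 calls, 7 of 13 shp63 ON calls and 23 of 23 calls between shp63 ON and Nutlin-3 passed every time, and no called gene changed direction. The 3 Nutlin-3 calls lost in some were TRIAP1, LPIN1 and ACTA2, and the 7 were BLOC1S2, CMBL, KITLG, CYFIP2, LPIN1, FUCA1 and ACTA2. The 2 falls with Nutlin-3 became 1 under quantile normalization, median centring, cyclic loess, an intensity trend or the replicate block, 0 in the adjusted analysis of variance, and 0 to 2 without 1 array. In shp63 ON the 5 rises became 3 with the replicate block and 3 to 5 without 1 array, and the 8 falls became 4 in the adjusted analysis of variance and 4 to 8 without 1 array. For the other p53 targets in shp63 ON, the adjusted analysis of variance left 1 rise and 7 falls, and leaving out 1 array left 6 to 13 falls. Their 2 rises over Nutlin-3 became 1 without dim genes. The Nutlin-3 median was 1.04 to 1.12 without 1 array, and the median between shp63 ON and Nutlin-3 was −0.89 after quantile normalization and −0.91 after cyclic loess. The replicate numbers pair no arrays by the labels, and deviations of same-numbered arrays correlated at −0.06, −0.02 and 0.11. The replicate block took the calls of LPIN1 with Nutlin-3 and of RPS27L, PRKAB1 and TP53I3 in shp63 ON. Without a detection call, levels near background cannot be told from it.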
